A study of Homo sapiens with 6 samples.

Results

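CUT&Tag peaks of the insulator protein CTCF and of the cohesin subunit SMC1 were examined at 8 genes for abundant nuclear and small noncoding RNAs. The genes were NEAT1, MALAT1, RN7SK, RN7SL1, RN7SL2, RMRP, RPPH1 and SNHG1, taken by name from the 59679 genes of the annotation. They were chosen by name with the peaks of these libraries already known, that is, with their presence in the lists and their ranks by total and highest signal in view. Presence and rank are therefore given as descriptions. Every peak that overlapped a gene body extended by 10 kb on each side was taken, which gave 88 peaks over the 6 lists, 29 of CTCF and 59 of SMC1. Of these, 41 overlapped a gene body itself.

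The libraries came from IMR90, a human fetal lung fibroblast line, and all of them from the same isolate according to their labels. For CTCF there was a control library at p21, a library at p16 treated with ICM for 6 days, and a library at p34. For SMC1 the control and the ICM-treated library were both at p16, with no number of days given for the treatment, and the third library was at p34. The p numbers are those of the sample titles. ICM (inflachromene) is a small molecule that binds HMGB proteins. The p34 libraries carry no treatment in their labels and are called senescent here, because senescent cells of high passage are the one remaining sample of each antibody in the design of the series. The control and ICM-treated CTCF libraries thus differ in p number as well as in treatment, and these cannot be told apart. Each group holds 1 library, so no difference between conditions could be set against a spread between replicates, and no test was made.

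The lists held 4673, 6728 and 8577 CTCF peaks in control, ICM-treated and senescent cells, and 14883, 17809 and 12927 SMC1 peaks in the same order. They were thresholded library by library, so that the weakest CTCF peaks had a total signal of 14246, 20161 and 6267 and the weakest SMC1 peaks one of 3456, 2455 and 2796. Total signal is the coverage summed over a peak and highest signal is its tallest position. Median widths also differed between lists. They were 1797, 1960.5 and 1120 bp for CTCF and 911, 754 and 1005 bp for SMC1. Since neither the scale nor the depth is known to be shared between lists, values are given as percentiles within their own list, where 100 is the strongest peak, and as ranks counted from the strongest. A gene without a peak in a list may lie just under that list's threshold. As a check of the cell type, 7, 6 and 4 of 8 fibroblast genes had an SMC1 peak over the body in control, ICM-treated and senescent cells, against 2, 1 and 1 of 5 epithelial genes, 0, 0 and 1 of 4 blood cell genes and 0 of 3 endothelial genes. For CTCF these counts were 1, 4 and 2 for the fibroblast genes, 1 in each condition for the epithelial and for the blood cell genes, and 0, 0 and 1 for the endothelial genes. COL1A1, a collagen gene of fibroblasts, had a peak over its body in all 6 lists, while TBX5, also on the fibroblast list, had none. Among the others, the epithelial gene SFTPC and the blood cell gene SPI1 each had a peak in 4 lists and the epithelial gene KRT8 in the 3 SMC1 lists, whereas EPCAM, CDH1, NKX2-1, PTPRC and CD3E had none in any list. A peak is not a measure of expression.

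Of the 8 genes, 5 encode small RNAs that RNA polymerase III makes from short, compact genes. RN7SK is the RNA that keeps the elongation kinase P-TEFb inactive in the 7SK particle. RN7SL1 and RN7SL2 encode the RNA of the signal recognition particle, which brings nascent secreted proteins to the endoplasmic reticulum. RMRP and RPPH1 encode the RNA subunits of RNase MRP and RNase P, which process ribosomal and transfer RNA precursors. The other genes are transcribed by RNA polymerase II. NEAT1 is the scaffold of paraspeckles, MALAT1 is a long RNA of nuclear speckles, and SNHG1 carries small nucleolar RNAs in its introns. CTCF binds a defined DNA motif and halts cohesin as it extrudes chromatin loops, while cohesin is also found at active promoters.

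Of the 5 small RNA genes, 3 lie close to the 5′ end of another gene, so that a peak over them can also cover a neighbouring promoter. RN7SK lies 335 bp from the 5′ end of GSTA4, a glutathione transferase gene that is transcribed away from it. RMRP and CCDC107 are likewise divergent and 272 bp apart. RPPH1 and PARP2, a poly(ADP-ribose) polymerase gene, are 223 bp apart, as are SNHG1 and SLC3A2, the heavy chain of an amino acid transporter. By contrast, RN7SL1 lies inside the annotated span of the ribosomal protein gene RPS29, and RN7SL2 inside that of the uncharacterised LOC105378179.

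The sequences of these shared upstream regions were taken from RefSeq promoter entries on GRCh38.p14, which run from 250 bases before to 50 bases after an annotated 5′ end. Entries were found for MALAT1 and SNHG1 and, for the neighbours, for GSTA4, CCDC107, PARP2 and others, and each is read 5′ to 3′ on the strand named. They are shown because SMC1 or CTCF summits fall in or beside them. Searched on both strands were a core of the CTCF motif, the octamer ATGCAAAT of POU factors, the motif ACTACAA of Staf (ZNF143) and a second Staf motif. Of 35116 promoters of this length, 2.41%, 1.77%, 2.77% and 1.73% hold these letters, respectively. Capitals mark each match, which is a match of letters and not a shown binding site. The GSTA4 window (chr6:52995235-52995534, minus strand), which faces RN7SK, holds a CTCF core match at chr6:52995314-52995325 and a second Staf motif at chr6:52995467-52995476.
GSTA4: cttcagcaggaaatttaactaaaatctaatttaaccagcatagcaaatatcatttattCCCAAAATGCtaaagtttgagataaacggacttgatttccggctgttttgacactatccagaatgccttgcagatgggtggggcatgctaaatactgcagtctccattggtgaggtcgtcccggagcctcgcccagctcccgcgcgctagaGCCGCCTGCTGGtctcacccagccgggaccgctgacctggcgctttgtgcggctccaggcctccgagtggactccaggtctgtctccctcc
The window of CCDC107 (chr9:35658042-35658341, plus strand), which lies between it and RMRP, holds an octamer at chr9:35658227-35658234.
CCDC107: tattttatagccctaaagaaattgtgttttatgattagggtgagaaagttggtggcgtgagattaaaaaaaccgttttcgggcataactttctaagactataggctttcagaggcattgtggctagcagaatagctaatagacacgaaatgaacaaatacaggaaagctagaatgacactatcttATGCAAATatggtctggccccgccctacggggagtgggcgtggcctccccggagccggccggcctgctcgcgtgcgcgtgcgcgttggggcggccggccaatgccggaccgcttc
That of PARP2 (chr14:20343385-20343684, plus strand), beside RPPH1, holds an octamer at chr14:20343501-20343508.
PARP2: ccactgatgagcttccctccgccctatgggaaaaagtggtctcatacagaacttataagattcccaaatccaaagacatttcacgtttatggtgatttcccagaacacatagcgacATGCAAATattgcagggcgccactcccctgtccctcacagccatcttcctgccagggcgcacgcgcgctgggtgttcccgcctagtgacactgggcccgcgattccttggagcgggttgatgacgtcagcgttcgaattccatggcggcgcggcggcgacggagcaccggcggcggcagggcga
The windows of SNHG1 (chr11:62855836-62856135, minus strand) and MALAT1 (chr11:65497488-65497787, plus strand) hold none of the searched motifs.
SNHG1: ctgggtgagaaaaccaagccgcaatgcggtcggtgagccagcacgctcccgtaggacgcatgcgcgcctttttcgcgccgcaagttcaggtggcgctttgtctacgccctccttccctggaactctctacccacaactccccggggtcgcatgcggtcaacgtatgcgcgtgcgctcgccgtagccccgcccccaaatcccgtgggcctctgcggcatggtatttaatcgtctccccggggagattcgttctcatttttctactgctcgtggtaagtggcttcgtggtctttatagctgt
MALAT1: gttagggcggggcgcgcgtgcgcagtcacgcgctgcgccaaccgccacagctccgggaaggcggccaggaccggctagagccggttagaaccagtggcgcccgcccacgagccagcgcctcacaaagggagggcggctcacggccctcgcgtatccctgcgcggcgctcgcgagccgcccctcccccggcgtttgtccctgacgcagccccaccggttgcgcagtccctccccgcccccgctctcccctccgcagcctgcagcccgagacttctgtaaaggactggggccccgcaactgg

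Within the gene bodies and 10 kb flanks, 7, 8 and 7 of the 8 genes had a CTCF peak in control, ICM-treated and senescent cells (13.5%, 17.9% and 19.6% of all annotated genes). All 8 had an SMC1 peak there in every condition (29.4%, 30.3% and 25.6%). Both antibodies had a peak in the window of 7, 8 and 7 genes (11.6%, 14.9% and 13.7%) and over the body of 4, 7 and 5 (6.36%, 8.39% and 7.0%).

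The counts over the gene bodies describe genes chosen with these peaks known, so no contrast between small and long RNA genes is drawn from them. In the control CTCF list, 4 of the 8 genes had a peak over the body, against 7.77% of all annotated genes. The ICM-treated list had 7 (10.8% of all genes) and the senescent list 5 (10.4%). For SMC1 the counts were 8 (19.3%), 8 (19.0%) and 7 (15.7%). All of the CTCF peaks over bodies in control and senescent cells belonged to the small RNA genes, which numbered 4, 5 and 5 of 5 in the CTCF lists and 5 of 5 in every SMC1 list. Among all genes no longer than 500 bp, to which these 5 belong, the shares were 1.6%, 2.24% and 1.38% for CTCF and 2.61%, 2.45% and 2.09% for SMC1. Of the 3 long genes, 0, 2 and 0 had a CTCF peak over the body and 3, 3 and 2 had an SMC1 peak. Among genes longer than 500 bp these shares were 9.11%, 12.7% and 12.4% for CTCF and 23.0%, 22.6% and 18.6% for SMC1.

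RN7SK, RN7SL1, RN7SL2 and RMRP had a peak over the body in all 6 lists, which holds for 4.44% of all genes, for 0.544% of genes no longer than 500 bp and for 5.29% of longer ones. These were also the 4 genes in all 3 CTCF lists (6.44% of all genes, 1.01% of genes no longer than 500 bp), while 7 genes, all but MALAT1, were in all 3 SMC1 lists (12.2% and 1.23%). RPPH1 was in 5 lists, NEAT1 in 4, and MALAT1 and SNHG1 in 3. At or above the 90th percentile by total signal were peaks of 2, 4 and 2 genes in the CTCF lists (1.03%, 1.53% and 1.45% of all genes) and of 3, 3 and 5 genes in the SMC1 lists (3.11%, 3.2% and 2.49%). The median percentile over the genes with a body peak was 92.7, 90.1 and 79.2 for CTCF and 88.8, 80.1 and 95.5 for SMC1. By highest signal the medians were 91.7, 61.1 and 51.2 for CTCF and 68.1, 71.7 and 81.3 for SMC1. The percentile map shows RN7SL2 near the top of every list and RPPH1 near the top for SMC1 alone.

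**Figure D1:**
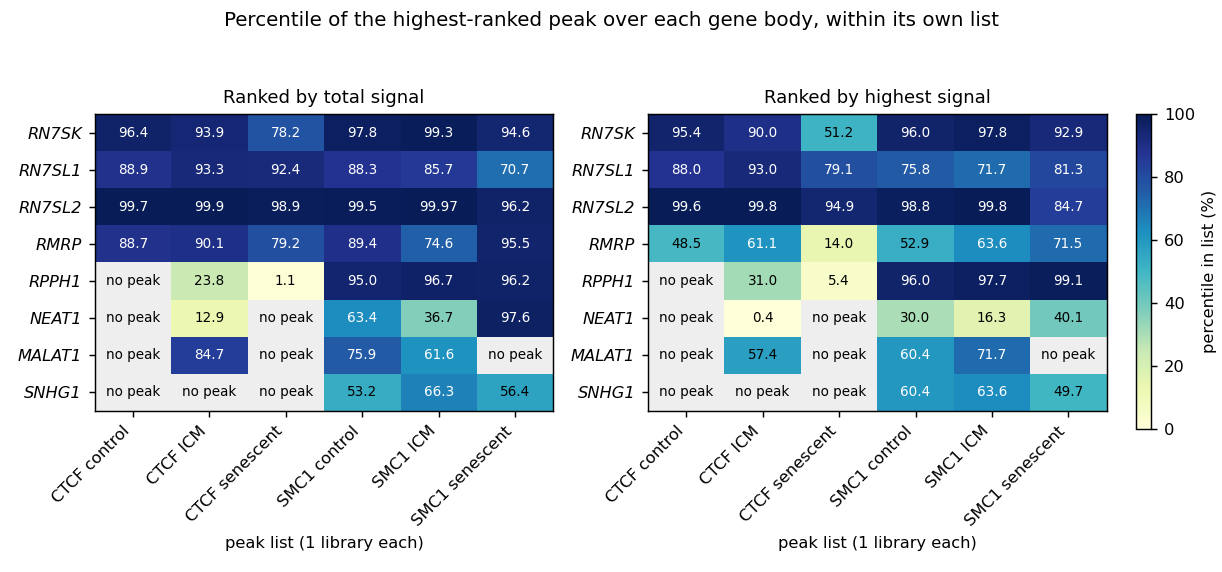
Percentile, within each of the 6 lists (columns, 1 library each), of the highest-ranked peak over the body of each gene (rows), ranked by total signal on the left and by highest signal on the right; grey cells have no listed peak. RN7SL2 lies between 96.2 and 99.97 by total signal in every list, and RPPH1 between 95.0 and 96.7 for SMC1 but at 23.8 and 1.1 for CTCF.

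RN7SK (chr6:52995620-52995951, plus strand) carried 1 peak in each list, with no other peak within 10 kb. By total signal the CTCF peak stood at percentile 96.4 in control (rank 167), 93.9 in ICM-treated (rank 411) and 78.2 in senescent cells (rank 1873). By highest signal it stood at 95.4, 90.03 and 51.2. The senescent CTCF peak was thus the lowest of these on both measures. Its width was 1508 bp against 2762 and 2442 bp, in the CTCF list with the smallest median width. The SMC1 peak stood at percentile 97.8, 99.3 and 94.6 by total signal and at 96.0, 97.8 and 92.9 by highest signal, with widths of 1275, 1283 and 1318 bp.

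The summits at RN7SK fell at separate positions, either in the gap towards GSTA4 or inside RN7SK. CTCF summits lay 236 bp upstream of the 5′ end of RN7SK in control and 203 bp upstream in ICM-treated cells. In senescent cells the CTCF summit lay inside the gene, 262 bp downstream of the 5′ end and 498 bp from that of control. For SMC1 the summit inside the gene was that of ICM-treated cells, 189 bp downstream and 493 bp from control, while it lay 304 bp upstream in control and 251 bp upstream in senescent cells. The control SMC1 summit, chr6:52995316, lay within the CTCF core match of the GSTA4 window printed above. The other upstream summits were 44 bp (senescent SMC1), 59 bp (control CTCF) and 92 bp (ICM-treated CTCF) from it, whereas those inside RN7SK were 484 and 557 bp away. All 6 peaks covered both positions, so the place of the highest coverage differed while the peaks themselves overlapped.

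RN7SL2 (chr14:49862551-49862849, minus strand) had the highest-ranked body peak of the 8 genes by total signal in 5 of the 6 lists, the exception being senescent SMC1, where NEAT1 and RPPH1 ranked above it. Its CTCF peak was rank 14 in control, rank 10 in ICM-treated and rank 94 in senescent cells by total signal, and rank 19, 13 and 433 by highest signal. The SMC1 peak was rank 81, 7 and 490 by total signal and rank 181, 30 and 1780 by highest signal. The senescent lists held the lowest ranks for both antibodies. The CTCF summits coincided, at 28, 30 and 28 bp from the 3′ end and inside the gene. SMC1 summits lay 95 bp upstream of the 5′ end in control and 98 bp upstream in senescent cells, 3 bp apart. In ICM-treated cells the SMC1 summit lay inside the gene, 363 bp from that of control, at the same base as the CTCF summit of ICM-treated cells (chr14:49862581).

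RN7SL1 (chr14:49586580-49586878, no strand found) lies 275672 bp from RN7SL2. Its CTCF peak stood at percentile 88.9, 93.3 and 92.4, with summits 233, 222 and 268 bp from the lower-coordinate end and so all inside the gene. The SMC1 peak stood at percentile 88.3, 85.7 and 70.7. Its summit lay 116 bp outside the lower end in control and 35 and 76 bp inside it in ICM-treated and senescent cells. RPS29 spans all of these summits, and its 5′ end lay further than 1 kb from each of them.

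The 7SL RNA genes are near-identical copies, and reads may be placed on any copy that matches. How reads with several equal matches were treated is not given in the sources used here, so the division of signal between RN7SL1, RN7SL2 and RN7SL3 is uncertain. RN7SL3 lies in the RN7SL2 window, 8636 bp away, and its neighbour NEMF has its 5′ end there. In control and ICM-treated cells 1 CTCF peak spanned both, at percentile 92.2 and 96.8, with its summit 76 and 81 bp from the 5′ end of NEMF. In senescent cells the list held 2 separate peaks, one at percentile 92.6 with its summit 80 bp from that end and another of 777 bp over RN7SL3 at percentile 41.9. SMC1 peaks of control and ICM-treated cells had their summits 61 and 144 bp from the 5′ end of NEMF, at percentile 55.4 and 55.2, and did not reach RN7SL3. Senescent cells had no SMC1 peak there. A further SMC1 peak lay 5524 bp upstream of RN7SL2 in control (percentile 30.8) and 5565 bp upstream in ICM-treated cells (59.4), and none was listed there in senescent cells. The CTCF percentiles at RN7SL2 were above those over this copy in each condition.

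RMRP (chr9:35657750-35658019, minus strand) shared its peaks with CCDC107. The CTCF peak covered RMRP in all 3 lists at percentile 88.7, 90.1 and 79.2, but its summit lay 525, 633 and 541 bp upstream of RMRP, within CCDC107. By highest signal these peaks ranked lower, at percentile 48.5, 61.1 and 14.0, and they were 2737, 2455 and 1832 bp wide. SMC1 summits lay inside RMRP in control (84 bp downstream of the 5′ end, percentile 89.4) and in ICM-treated cells (169 bp downstream, percentile 74.6). The ICM-treated list also held a separate SMC1 peak with its summit 338 bp upstream, at percentile 70.4. In senescent cells 1 SMC1 peak of 2021 bp covered both positions, with its summit 453 bp upstream, inside CCDC107, at percentile 95.5. The control CTCF list had another peak (chr9:35646305-35647832, percentile 57.2), which reached the 10 kb window by 83 bp.

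RPPH1 (chr14:20343071-20343411, no strand found) was strongly ranked for SMC1 and weakly ranked or missing for CTCF. SMC1 stood at percentile 95.0, 96.7 and 96.2 by total signal and at 96.0, 97.7 and 99.1 by highest signal. In senescent cells this was rank 107 of 12927 by highest signal, in a peak of only 630 bp. The SMC1 summits all lay inside the gene, 177, 171 and 213 bp from its lower-coordinate end, and differed by 6 to 42 bp. CTCF had no listed peak in control, where the nearest lay 265450 bp away. In ICM-treated cells a CTCF peak stood at percentile 23.8, with its summit 249 bp from the lower end. In senescent cells it stood at percentile 1.08, with a total signal of 6334 where the weakest peak of that list had 6267, and its summit was 222 bp from the lower end. Both CTCF peaks were gone when each list was cut to 4673 peaks, the length of the control list, by total signal. When the cut was made by highest signal, the ICM-treated peak was kept (rank 4589) and the senescent one was lost. The CTCF and SMC1 summits of one condition lay 78 and 9 bp apart.

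**Figure D2:**
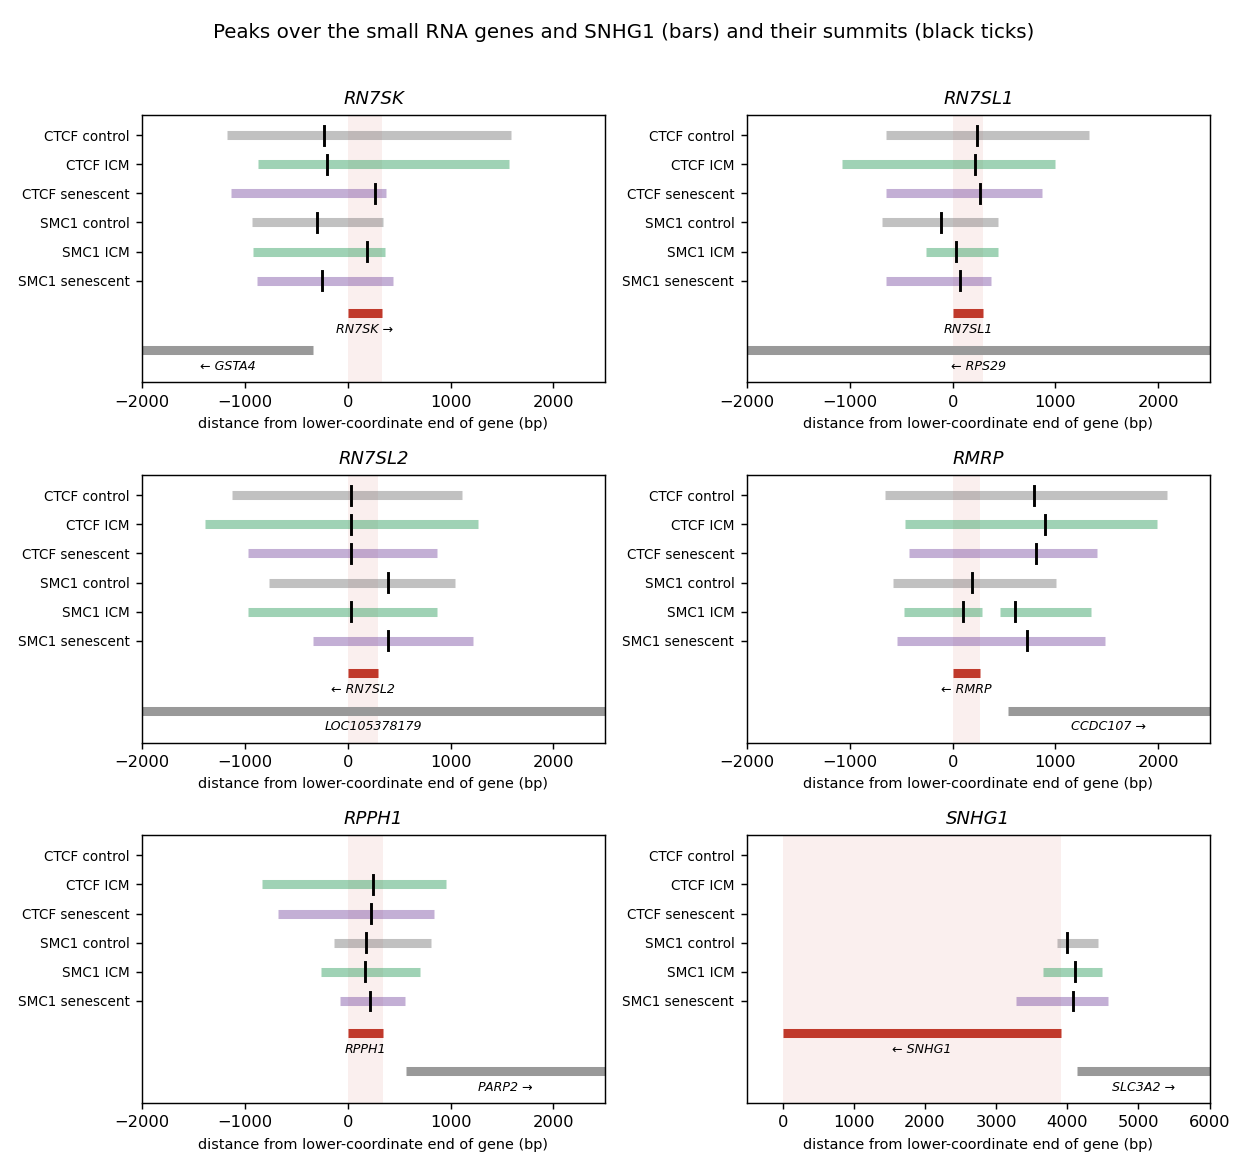
Peaks (bars, coloured by condition) and their summits (black ticks) in the 6 lists around the 5 small RNA genes and SNHG1, against the distance in bp from the lower-coordinate end of each gene; the shaded span and red bar are the gene, grey bars are neighbouring genes (ARHGEF39 near RMRP and the snoRNAs in SNHG1 are not drawn) and arrows give the strand where it was found. CTCF summits coincide at RN7SL2 (28, 30 and 28 bp), and at RMRP they lie over CCDC107, while the SMC1 summits of RN7SK and RN7SL2 differ in position between lists by up to 493 bp.

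SNHG1 (chr11:62851978-62855885, minus strand) had SMC1 but no CTCF over its body. The SMC1 peak covered the 5′ end in each list at percentile 53.2, 66.3 and 56.4, with widths of 574, 831 and 1296 bp. Its summits lay 90, 200 and 173 bp upstream of the 5′ end, all inside the SNHG1 window printed above and in the gap towards SLC3A2. Their distance to the 5′ end of SLC3A2 was 134, 24 and 51 bp. None of the annotated snoRNA genes in the introns of SNHG1 held a summit. The nearest CTCF peaks lay past the 3′ end, where a control peak at percentile 27.5 reached the 10 kb window by 96 bp and an ICM-treated peak at percentile 64.4 by 911 bp. These are the CTCF peaks over RNU2-2, a U2 spliceosomal RNA gene, which also had SMC1 peaks at percentile 93.8, 90.2 and 91.4. In senescent cells the nearest CTCF peak was 24283 bp from SNHG1.

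MALAT1 (chr11:65497738-65506516, plus strand) had an SMC1 peak at its 5′ end in control and ICM-treated cells. The summits lay 201 and 198 bp upstream, 3 bp apart and both inside the MALAT1 window printed above, at percentile 75.9 and 61.6. The senescent SMC1 list had no peak over the gene. Its nearest peak lay 410 bp past the 3′ end, close to the 5′ end of TALAM1, the antisense transcript of MALAT1. That SMC1 peak was listed in all 3 conditions, at percentile 96.9, 94.4 and 98.7, with summits 248, 245 and 102 bp from the 5′ end of TALAM1. A CTCF peak at percentile 26.0 lay in the same stretch in control, with its summit 573 bp from that end, and one at percentile 49.7 lay there in senescent cells, 5 bp from it. By highest signal the control and senescent peaks were among the weakest of their lists, at percentile 1.25 and 1.20. In ICM-treated cells a wide CTCF peak also covered this stretch, with its summit further downstream.

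Further downstream of MALAT1 a second position was shared by both antibodies. SMC1 summits lay 13253, 13255 and 13207 bp from the 5′ end, at percentile 39.6, 62.9 and 56.7. CTCF summits lay there in ICM-treated cells (13160 bp) and senescent cells (13158 bp), 2 bp apart, but not in control. The ICM-treated CTCF peak was 5048 bp wide and stood at percentile 84.7, and it is the peak whose edge reached the body of MALAT1, while the senescent one was 698 bp wide at percentile 40.0. Upstream of MALAT1, SMC1 summits lay 10081, 8346, 5681 and 3650 bp from the 5′ end in control. ICM-treated cells had all of these within 22 to 61 bp. In senescent cells the first 3 had a peak 69 to 104 bp away, and the one nearest to the gene was missing, as was the peak at the 5′ end.

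NEAT1 (chr11:65422798-65445540, plus strand) lies 52197 bp from MALAT1. The position shared by all 6 lists was upstream of the gene. CTCF summits lay 6246, 6213 and 6304 bp upstream of the 5′ end, at percentile 86.8, 96.3 and 95.5. By highest signal these CTCF peaks, 4573, 5995 and 3704 bp wide, stood at percentile 46.4, 78.0 and 83.7. SMC1 summits lay 6301, 6306 and 6339 bp upstream, at percentile 41.5, 19.4 and 49.5, so the summits of both antibodies fell within 93 bp of each other in each condition. A second SMC1 position, under the flank of the wide CTCF peaks but without a CTCF summit, lay 3700, 3842 and 3813 bp upstream, at percentile 96.8, 99.3 and 71.9. Control cells alone had an SMC1 peak between there and the gene, 1384 bp upstream at percentile 26.1.

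At the 5′ end of NEAT1 an SMC1 summit lay 348 bp downstream in control and 158 bp downstream in ICM-treated cells, at percentile 49.6 and 36.7. By highest signal these peaks stood low in their lists, at percentile 11.7 and 16.3. Senescent cells had no peak there. Within the gene, a control SMC1 peak with its summit 4374 bp downstream (percentile 63.4) and an ICM-treated CTCF peak with its summit 4460 bp downstream (percentile 12.9) overlapped. By highest signal that CTCF peak stood at percentile 0.386, so it was broad and low. In senescent cells the SMC1 peaks over the body were elsewhere. One was at percentile 4.1 with its summit 12994 bp downstream, and another at percentile 97.6 by total and 40.1 by highest signal spanned 3397 bp over the 3′ end. In ICM-treated cells separate SMC1 peaks lay past the 3′ end, with summits 24207 and 25872 bp from the 5′ end at percentile 35.8 and 51.3. The nearer of these lay within the span of the wide senescent peak, with the summits 1715 bp apart. Control and ICM-treated cells shared an SMC1 peak at the edge of the window, near the 5′ end of FAUP4, at percentile 41.9 and 59.8.

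**Figure D3:**
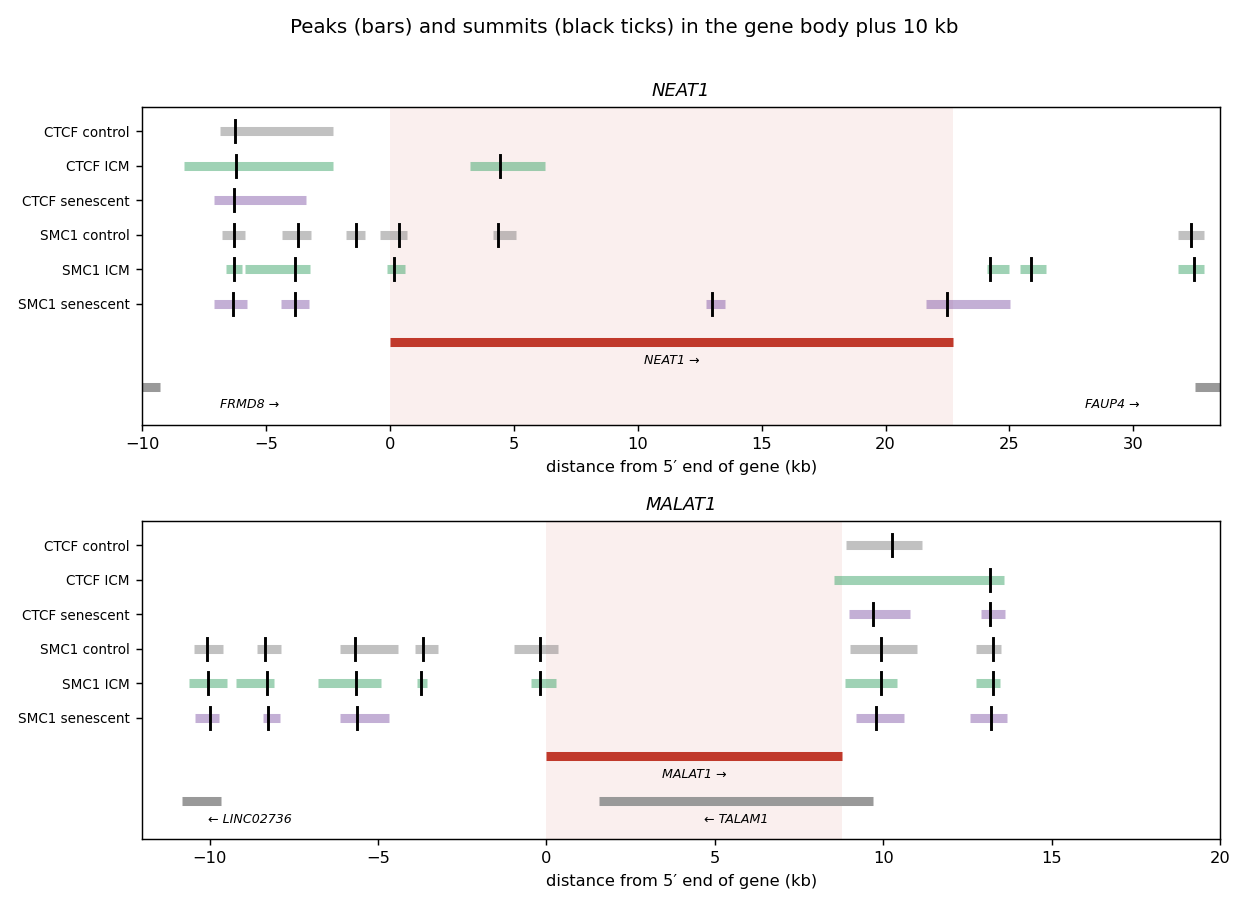
Peaks (bars, coloured by condition) and their summits (black ticks) in the 6 lists against the distance in kb from the 5′ end of NEAT1 (top) and MALAT1 (bottom); the shaded span and red bar are the gene, and grey bars are neighbouring genes. SMC1 peaks at both 5′ ends are listed in control and ICM-treated cells and not in senescent cells. Those of NEAT1 stand at percentile 11.7 and 16.3 by highest signal. The CTCF summits 6213 to 6304 bp upstream of NEAT1 are present in all 3 conditions.

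At the 5′ ends, no split by polymerase can be read from the counts, because RN7SK, RMRP and SNHG1 share this region with a protein-coding neighbour. The CTCF summits at RMRP lay 252, 360 and 268 bp from the 5′ end of CCDC107, nearer than to that of RMRP. At RN7SK they lay 100 and 133 bp from the 5′ end of GSTA4 in control and ICM-treated cells, and 598 bp from it in senescent cells. Within 1 kb of the 5′ end, which could be placed for the 6 genes with a strand, CTCF peaks were listed for 3 genes in every condition, namely RN7SK, RN7SL2 and RMRP (6.43%, 9.11% and 6.92% of the 39263 genes with a strand). SMC1 peaks were listed for 6, 6 and 4 (19.7%, 17.5% and 14.4%). NEAT1 and MALAT1 were the 2 genes with an SMC1 peak there in control and ICM-treated but not in senescent cells, a pattern held by 4.17% of genes with a strand. A peak there in all 3 lists was held by 3 genes for CTCF (5.02%) and 4 for SMC1 (11.4%), and none had a CTCF peak there in control and ICM-treated cells alone (1.06%). This count within 1 kb was added after the peaks had been seen.

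Presence of a peak over the body was compared for each pair of conditions. A CTCF peak over the body was listed in both control and ICM-treated cells for 4 genes (7.39% of all genes), in both control and senescent cells for 4 (6.65%), and in both ICM-treated and senescent cells for 5 (8.12%). For SMC1 these counts were 8 (16%), 7 (13.3%) and 7 (13.2%). For CTCF, 3 of the 8 genes had a peak over the body in ICM-treated but not in control cells (NEAT1, MALAT1 and RPPH1), against 3.43% of all genes. Only RPPH1 did so in senescent but not in control cells (3.8%), and NEAT1 and MALAT1 did so in ICM-treated but not in senescent cells (2.7%), with no gene showing the opposite (2.33%). No gene of the 8 had a CTCF peak in control that was missing in either other list, against 0.384% and 1.12% of all genes. For SMC1 the single difference was MALAT1, present in control and in ICM-treated but not in senescent cells (6.0% and 5.75%). No gene differed between control and ICM-treated cells in either direction (3.3% and 2.92%), and none had an SMC1 peak in senescent cells that was missing in control or ICM-treated cells (2.34% and 2.47%). With each CTCF list cut to 4673 peaks by total signal, the genes with a body peak numbered 4, 5 and 4. MALAT1 was then the only one in ICM-treated but not in control cells, as NEAT1 and RPPH1 dropped out. Cut by highest signal they numbered 4, 6 and 3, and both MALAT1 and RPPH1 were in ICM-treated but not in control cells. With each SMC1 list cut to 12927 peaks, MALAT1 was missing in senescent cells alone, by total and by highest signal. By highest signal, NEAT1 then had no SMC1 body peak in ICM-treated cells.

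The summits of overlapping peaks in the windows were set beside those of all overlapping peaks of the same lists. For CTCF the summits lay less than 100 bp apart in 5 of 8 pairs between control and ICM-treated cells (81.5% of all overlapping pairs), in 5 of 7 between control and senescent cells (79.6%) and in 7 of 8 between ICM-treated and senescent cells (81.7%). For SMC1 these were 12 of 19 (80.7%), 8 of 13 (68.2%) and 9 of 15 (68.1%). Here both peaks of a pair had to reach the window, a limit that the shares of all pairs lack. With the whole second list searched, control CTCF peaks gave 6 of 9 in ICM-treated and 6 of 8 in senescent cells. Control SMC1 peaks then gave 13 of 20 and 8 of 14. The median distance was 33, 35 and 36.5 bp for CTCF at these genes, where all pairs gave 18, 27 and 23 bp. It was 61, 74 and 48 bp for SMC1, where all pairs gave 33, 55 and 55 bp. Between CTCF and SMC1 of one condition, 3 of 8, 5 of 8 and 4 of 8 pairs lay within 100 bp (64.6%, 64.2% and 69.3% of all pairs). The pairs are few and share genes, so these counts are descriptions. Between conditions, the distances over 100 bp at the small RNA genes were those at RN7SK, RN7SL1, RN7SL2 and RMRP described above, whereas RPPH1 had none.

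Other genes of the same classes were counted in lists of fixed membership. Of 16 other RNA polymerase III genes, among them U6, vault and Y RNA genes, 1, 3 and 1 had a CTCF peak over the body and 4, 4 and 0 an SMC1 peak. Of these, 10 had no peak in any list, and only RN7SL3 was in all 3 CTCF lists. Of 19 genes for spliceosomal and related small RNAs made mostly by RNA polymerase II, 8, 10 and 5 had CTCF and 13, 9 and 11 had SMC1 over the body. RNU5E-1 (a U5 RNA gene) and RNU4ATAC (a minor spliceosome RNA gene) were in all 6 lists. RNU5D-1 and SCARNA2 were in all 3 CTCF lists, and RNU4-2, RNU5A-1, RNU5B-1, RNU12, RNU2-2 and RNU1-1 in all 3 SMC1 lists. The share of genes with a peak was higher in the 5 small RNA genes than in either class in every list, a difference that the choice of the 5 fixes and that carries no test.

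**Figure D4:**
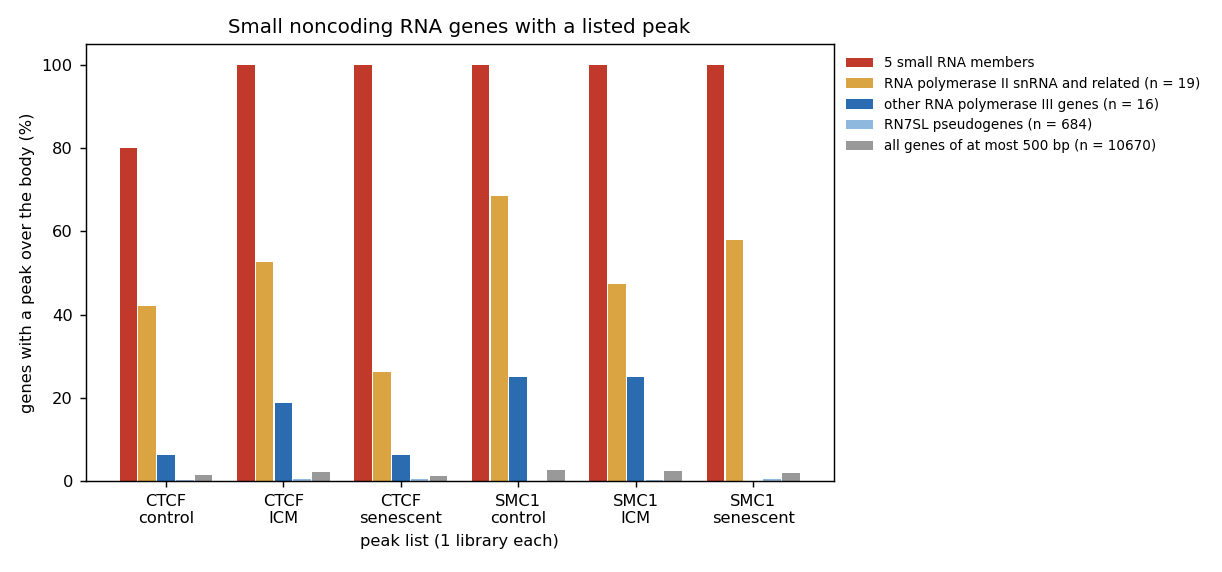
Share of genes (%) with a listed peak over the gene body in each of the 6 lists (1 library each), for the 5 small RNA genes, the comparison classes, the annotated RN7SL pseudogenes and all genes of at most 500 bp. The 5 small RNA genes reach 100% in every list but that of control CTCF, the pseudogenes stay under 0.6%, and the other RNA polymerase III genes have no SMC1 peak in senescent cells.

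Of 21 other snoRNA host genes, 4, 6 and 4 had CTCF and 16, 13 and 9 had SMC1 over the body. SNHG29 was in all 6 lists, SNHG7, SNHG11 and SNHG17 were in all 3 CTCF lists, and SNHG10, SNHG15, SNHG16, SNHG19, SNHG25, GAS5, ZFAS1 and DANCR, like SNHG1, were in all 3 SMC1 lists. Of 16 other long noncoding RNA genes found by name, 6, 6 and 6 had CTCF and 8, 8 and 7 had SMC1. MIR22HG, LINC-PINT, MIAT and MIR100HG were in all 6 lists, MEG3 and FIRRE in all 3 CTCF lists and KCNQ1OT1 in all 3 SMC1 lists. Neither NEAT1 nor MALAT1 was in all 6.

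Protein-coding genes with the most similar set of 6 percentiles, over body and 10 kb flanks and with 0 for no peak, were found for each gene. The closest were SDC4 for RPPH1 (mean absolute difference of 0.719 percentile points over the 6 lists), MEIOSIN for RN7SL2 (0.835), NEAT1 with GPC1 (1.12), RN7SL1 with GPHN (1.16) and RN7SK with MIDN (1.36). The closest genes to RMRP (FAAP20, 3.20), MALAT1 (FLAD1, 4.86) and SNHG1 (GAREM1, 6.14) were further away. SDC4 matched RPPH1 in having no CTCF peak in control and SMC1 percentiles of 94.6, 99.0 and 96.7. Of the genes compared, 19985 were candidates for RPPH1, so the closest is the nearest of many.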

How the data were processed

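CUT&Tag with antibodies against CTCF and SMC1 was performed by the authors on IMR90 cells. Per the submitters' processing notes and the study's methods, reads were aligned to GRCh38 with Bowtie2 2.3.4.1, E. coli reads served for scaling, and peaks were called per library with SEACR 1.3, in stringent mode on the top 1% of regions. The notes also name Picard 2.20.7, for which the sources used here give no role in the CUT&Tag processing. The deposited lists give total and highest signal (coverage) per peak, as whole numbers. The depth of each library is not in the lists, so it is unknown here. The study's methods describe a motif filter for CTCF peaks. The deposited CTCF lists hold slightly more peaks than the study gives after this filter, so they are not the filtered sets. Whether any motif filter was applied to them is not stated.

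From these lists the 1 mitochondrial peak each was removed. The summit was the midpoint of the region of highest signal, and peaks were called shared when summits lay less than 100 bp apart. Gene positions came from RefSeq GRCh38.p14 and strand, by symbol and chromosome, from GENCODE 44 (65.8% of genes, not RN7SL1 and RPPH1). Peak ends on chromosome 17 reach 83206712, past its GRCh37 length of 81195210. Python 3.11.15 and pandas 2.3.3 were used, and the overlap code was tested on simulated data. Groups came from sample titles, with 1 library each, so there are no tests. Some sequences and a marker gene are not reported here.

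Members and lists were chosen with earlier results of these data known. Named were the 8 genes with all their peaks, annotated genes at a summit, the protein-coding gene most alike in 6 percentiles (more than 1 Mb away), and comparison genes in all 6 lists or all 3 of an antibody. Alternatives were equal-length lists, joining of peaks under 1 kb apart, summit-only overlap, other windows, other rules for shared positions and other ranking columns.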

Additional observations from a re-analysis of the deposited data

How the results depend on the processing

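Of 144 alternative values for 33 results, 111 stayed close to the reported value and 33 moved. Those that stayed close include all 21 with lists of equal length by total signal and all with windows of 1, 5 or 50 kb. The tally mixes a loose rule for counts (126 values, 109 close) with a narrow one for percentiles, so it does not measure robustness. A fall from 7 to 5 genes with a CTCF body peak in ICM-treated cells was called close, while a median of 91.7 in place of 92.7 was called moved. No paired analysis was possible because each group has 1 library. When the summit had to lie inside the gene body, the genes counted were 2 in control and 4 in ICM-treated cells for CTCF and 3 in control and 3 in senescent cells for SMC1. The genes counted in both lists were then 2 (control and ICM), 2 (control and senescent) and 3 (ICM and senescent) for CTCF and 3, 2 and 3 for SMC1. These are fewer by construction, since peaks beside a small gene no longer count. With lists of equal length by highest signal, senescent CTCF had 3 genes and ICM and senescent CTCF shared 3. The SMC1 peaks of the 22 control peaks shared with ICM-treated cells numbered 13, and 20 with whole peaks or with 500 bp windows. Those shared with senescent cells numbered 8, and 14 with whole peaks or 13 with reciprocal overlap, and of the ICM-treated peaks 9 were shared with senescent cells, and 15 with whole peaks. The median percentile depended on the ranking column. By highest signal it was 91.7, 61.1 and 51.2 for CTCF and 68.1, 71.7 and 81.3 for SMC1, and by mean coverage 90.8, 86.1 and 59.1 for CTCF and 83.6, 83.9 and 67.1 for SMC1. With peaks under 1 kb apart joined it was 78 in senescent CTCF and 86.9, 88.6 and 94.2 for SMC1. The cause of these shifts was not tested. The unknown depth limits what the absence of a peak can say.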

Other observations

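Among the other RNA polymerase III genes, RNU6-2, VTRNA1-1, VTRNA1-2 and VTRNA2-1 had an SMC1 peak over the body in control and ICM-treated cells and none in senescent cells, a pattern held by 0.534% of genes no longer than 500 bp. RNU6-2 encodes a U6 spliceosomal RNA and the others are annotated as vault RNA genes. The SMC1 percentiles in control and ICM-treated cells were 79.01 and 57.7 for RNU6-2, 16.9 and 47.3 for VTRNA1-1, 30.1 and 41.6 for VTRNA1-2, and 78.0 and 76.1 for VTRNA2-1. These genes were singled out after their values had been seen, and the VTRNA1-1 and VTRNA1-2 peaks stood in the lower ranks of their lists.

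Peaks were rare over the annotated pseudogene copies of the small RNA genes. Of 684 RN7SL pseudogenes, 2, 4 and 3 had a CTCF peak and 1, 2 and 3 an SMC1 peak over the body, and 7 had one in any list. Of 293 RN7SK pseudogenes, 1 had a peak in any list. Of 154 annotated snRNA genes, 10, 13 and 5 had CTCF and 22, 16 and 18 had SMC1 over the body. These counts were added after the data had been seen. How reads that fit several copies were placed is not given in the sources used here, and its part in the counts was not tested.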
